A study of Arabidopsis thaliana with 251 samples.

Results

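The regions described here are places at the starts of protein-coding genes where a designed zinc finger (ZF) protein was found far from the gene it was built for. They were chosen by the fold enrichment of FLAG ChIP–seq in the line labelled TRB1-ZF: a region was a member when the enrichment of the summit listed first was 4-fold or more, when it lay outside the pericentromeres and when its midpoint fell between 500 bp upstream and 200 bp downstream of an annotated protein-coding start. Of 19986 FLAG regions on the 5 chromosomes, 6091 had at least 4-fold enrichment, 5177 of these were outside the pericentromeres, and 1119 were members. They sat at 1222 of the 24059 protein-coding starts on the chromosome arms, and 104 members lay at 2 or more starts. Regions at starts whose first fold was under 4, called weaker regions below, numbered 2466, and 20184 starts, called other starts below, had no region with its midpoint in that window, although 15.2% of them had a FLAG region that reached into it.

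The study screened Arabidopsis proteins for the ability to silence FWA, a homeodomain gene that is expressed in the fwa epiallele and then delays flowering. Each protein was fused to the ZF, which was designed for the FWA promoter, and expressed in fwa plants of the Col-0 ecotype from the UBQ10 promoter or, as genomic DNA, from the effector's own promoter, depending on the construct. Leaf tissue of plants 4 to 5 weeks old was used for histone marks and RNA polymerase II (Pol II, phosphorylated at Ser5), and unopened flower buds for FLAG, so the regions were defined in another tissue than the marks. The lines compared with fwa of the same data set were MSI1-ZF, LHP1-ZF, JMJ14-ZF, ELF7-ZF, CPL2-ZF, HDA6-ZF and the HD2 fusions (HD2A-ZF, HD2C-ZF and HD2B-ZF), with EYFP-ZF, a fluorescent protein on the same ZF, as control. The elf7 mutant was compared with Col-0 and carries no ZF. Most groups had 2 libraries. The FLAG TRB1-ZF list, which fixed the members, came from 1 library with no replicate, and H3K9ac in HD2B-ZF and HD2C-ZF also had 1 each. The ZF lines compared with fwa shared its background, and the effector fusions were represented by selected T2 lines that flower early. FLAG-tagged ELF7 and HD2A without a ZF (native ELF7-FLAG and HD2A-FLAG below) were other lines. The former was made in the elf7 mutant, and the paper does not state the background of the latter. Nothing in the labels says whether the 2 replicates came from separate plants, so p-values measure the spread between these libraries only.

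Histone marks divide gene starts by activity. Trimethylation of H3K4 and acetylation of H3 and H4 lie over the first nucleosomes of transcribed genes, H3K36 methylation is laid down along genes as Pol II elongates, and H3K27me3, written by the PRC2 complex, covers repressed developmental genes. MSI1 is a subunit of PRC2 and of deacetylase complexes, LHP1 binds H3K27me3, JMJ14 removes H3K4 methylation, HDA6 and the plant-specific HD2 proteins are histone deacetylases, ELF7 belongs to the PAF1 elongation complex and CPL2 is a phosphatase of the Pol II carboxy-terminal domain.

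The FLAG fold of the members ran from 4.00 to 11.6 with a median of 5.59, and these values describe the choice. Just inside the threshold lay the region at AT4G15720 with a fold of 4.0004, and just outside it that at AT4G03030 with a fold of 3.998. The highest folds were 11.58 at AT3G47830 (DNA glycosylase family, midpoint 221 bp upstream of the start), 11.55 at AT4G00467 (calcium-dependent lipid-binding family), at MTSSB (a mitochondrial single-stranded DNA-binding protein) and at XBAT33, and 11.49 at AT5G62970 (RNI-like/FBD-like domain protein). Members were 571 bp wide in the median, 523 had their midpoint upstream of the start and 596 at or downstream of it. The region over the FWA promoter itself (chr4:13037577-13039025, TAIR10) was no member, because its first listed summit had a fold of 2.44 although another of its summits reached 11.7. Near AT3G13470 there were regions with folds of 8.16 and 6.97, whose midpoints were at -910 and 218 bp from the start and so fell outside the window.

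Few members carried a sequence like that of the FWA site. The 8-mers most enriched at ZF regions of at least 4-fold elsewhere in the genome, which are not members, joined to the 14 bp sequence CAAGATGTATGGGA. The FWA promoter holds 2 copies that differ from it at 2 positions. They are printed with the members of highest FLAG fold that come equally close, 5′ to 3′ on the strand given, with the 14 matching positions in capitals:
FWA promoter (chr4:13038248-13038272, minus strand): cgacggAAAGATGTATGGGCttcgg
FWA promoter (chr4:13038293-13038317, minus strand): cgacggAAAGATGTATGGGCttcga
AT1G10890 (chr1:3627717-3627741, minus strand): gatgagGAAGATGTATGGGTaaaaa
AT2G18721 (chr2:8116870-8116894, plus strand): ttatgCAAGATGGATGGGTtccgtt
AT1G07050 (chr1:2164911-2164935, minus strand): gaagatGAAGATGTAGGGGAagaag
AT1G53550 (chr1:19983340-19983364, minus strand): ctgaaaCAAGAGGTATGGAAtaata
WRKY38 (chr5:7497022-7497046, plus strand): tctgtCATGATGTATAGGAaacaga

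Within 100 bp of the first summit and with up to 2 mismatches on either strand, this sequence was found in 15 of 1119 members (1.34%), in 0.852% of the weaker regions, in 4.26% of the regions of at least 4-fold elsewhere and in 0.0790% of all protein-coding starts in windows of the same length. Its core AAGATGTA was in 6.34% of members, 4.74% of weaker regions, 12.03% of regions elsewhere and 0.873% of all starts. The short sequences joined above were those most enriched in the regions elsewhere over all starts. A high share in the former and a low share in the latter were therefore fixed by this choice. Those shares set no independent level for members, whose share can be compared with that of the weaker regions. The match was more frequent at the strongest members, with 9 of 304 of at least 7-fold (2.96%) against 3 of 398 between 4- and 5-fold (0.754%). Of the 5 members with the highest fold, that at AT3G47830 came within 3 mismatches and the other 4 had 4 or 5.

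A second short sequence, the telobox AAACCCTA, was more frequent at gene starts than in other ZF regions. It is a promoter element of ribosomal and other growth genes and is known to be bound by TRB proteins and other telomere-repeat-binding factors. It occurred within 100 bp of the summit, on either strand, in 202 members (18.1%), in 17.9% of the weaker regions, in 7.46% of ZF regions of at least 4-fold elsewhere and in 6.36% of all starts. Its share also rose with the FLAG fold of the members, from 16.1% between 4- and 5-fold to 17.5% between 5- and 7-fold and 21.4% at 7-fold and more. The copies beside the summits of members with the highest fold are printed with the telobox in capitals:
MTSSB (chr4:6756490-6756514, minus strand): ttgtccccaAAACCCTAaaaatctt
AT2G18721 (chr2:8116854-8116878, minus strand): cttgcataaAAACCCTAgtttctga
AT2G40360 (chr2:16856704-16856728, minus strand): ttcaacctaAAACCCTAaatctctt
AT1G48040 (chr1:17721841-17721865, minus strand): acagaaaccAAACCCTAattcccca

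Other promoter elements were closer to their share in all starts. The site II element TGGGCC, often found beside teloboxes, was in 10.7% of members against 12.3% of all starts, and TGGGCT in 14.5% against 10.9%. The GA repeat GAGAGAGA was in 12.7% against 11.1%, and the G-box CACGTG in 4.83% against 6.00%. Members were richer in G and C than starts in general, with a mean of 38.3% ± 6.29 (SD, n = 1119) against 34.4% ± 5.70 (SD, n = 24059), as were the weaker regions with 38.8%. The label TRB1-ZF and the study's name FLAG-ZF were taken to be the same line, and what the telobox share owes to either was not tested.

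The genes behind the members were of many kinds. Ribosomal protein genes made up 32 of the 1222 member starts (2.62%) against 1.28% of all starts, pentatricopeptide or tetratricopeptide repeat genes 42 (3.44% against 2.14%) and genes annotated as transcription factors or DNA-binding or homeobox proteins 63 (5.16% against 3.84%). Kinase genes numbered 59 (4.83% against 5.20%), and cytochrome P450 genes 9 (0.736% against 0.948%). Weaker regions had nearly the same share of ribosomal protein genes, 2.56%. Of 13 clock genes listed, only RVE8, a MYB-like activator of evening genes, had a member (7.75-fold, midpoint 393 bp upstream). Of 18 flowering genes listed, the floral repressor MAF1 did (5.94-fold, 281 bp upstream), and none of 9 genes for the fused proteins did.

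In fwa leaves most member starts carried H3K4me3 and acetylation, and at the midpoint these marks depended on the side of the start. A peak of H3K4me3 over the midpoint was present in a median of 55.6% of the 596 regions at or downstream of the start over 4 fwa libraries (51.0 to 61.9%) and in 11.9% of the 523 upstream ones (9.37 to 16.4%). H3K14ac gave 56.1% against 13.8%, H3K9ac 54.7% against 15.1%, H3K27ac 51.2% against 11.1% and H3K36me3 48.7% against 10.2%. The ranges over libraries did not overlap for any of these 5 marks. H3K36me2 showed no such split (8.47% against 8.22%), and H3K27me3 covered few midpoints on either side. Over the whole window of the start, 64.3% of member starts had H3K4me3 against 52.9% of other starts, and starts with a weaker region had 63.5%, so this state was shared by both kinds of ZF region. Pol II was found at fewer, a median of 36.01% of member starts over 6 fwa libraries (16.9 to 53.7%), against 32.7% of other starts.

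**Figure D1:**
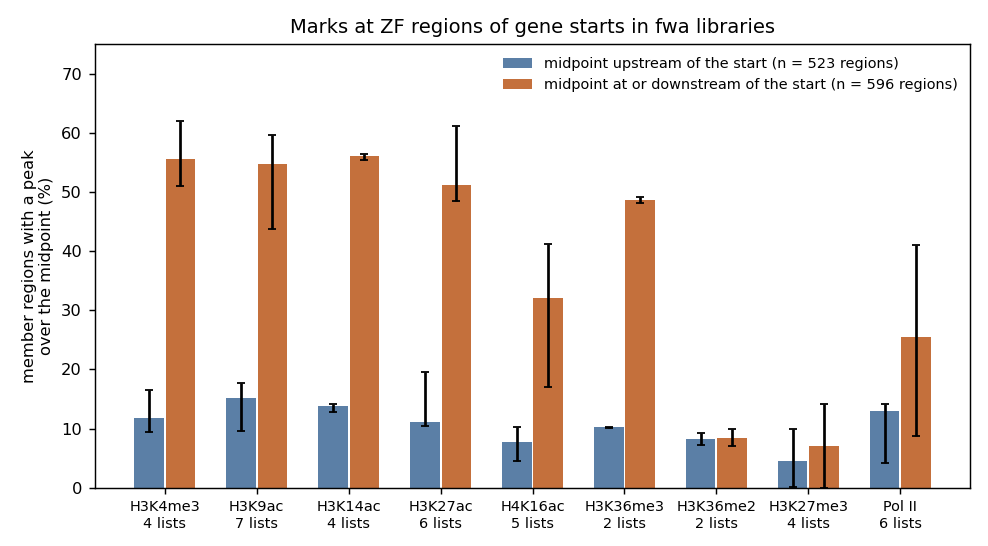
Share of member regions (vertical axis, percent) with a peak over the midpoint in fwa libraries, for each mark and for Pol II (horizontal axis, with the number of lists). Bars give the median over lists and lines the lowest and highest list; the downstream bars stand far above the upstream ones for H3K4me3, 4 acetylation marks and H3K36me3, at 56.1% against 13.8% for H3K14ac.

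The tissue could be read from marker genes within limits. In the 2 fwa libraries of data sets 1 and 2, H3K4me3 peaks lay at the start of the leaf gene RCA in both, of LHCB1.1 and LHCB3 in 1 and of RBCS1A in 0. The floral identity genes AG, AP3, PI and SEP2 carried H3K27me3 in both, SEP1 and SEP3 in 1 and SHP1 in 0. H3K4me3 peaks also lay at AP3, SEP1, SEP2 and SEP3 in 1 library each. Native ELF7-FLAG of flower buds overlapped 351 members (31.4%) in replicate 1 and 241 (21.5%) in replicate 2, against 26.8% and 17.3% of weaker regions, and native HD2A-FLAG overlapped 3 members. Of the 108 peak lists, those of H3K27me3 in data set 14 stood apart: 1 member midpoint was marked in both of its fwa libraries, against 108 in data sets 1 and 2. EYFP-ZF therefore had next to no H3K27me3 to lose, and its gains of that mark were counted against lists with few peaks.

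A site was called gained when its midpoint lay under a peak of the fused line but of none of the fwa lists from that data set, and lost when a peak covered it in all of those and not in the fusion. Both replicates had to show the change. Peaks are present or absent in these lists, so a change in a peak's edge counts in the same way as a new or vanished peak. Most members kept their state everywhere: 853 of 1119 changed in no line, 182 in 1 line, 67 in 2, 11 in 3, 4 in 4 and 2 in 6, over all marks and Pol II. In this count a member start called in the limma fits below was also a change. The count was made for members only, so it does not tell whether these numbers are particular to them.

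New H3K27me3 peaks at members were most frequent in MSI1-ZF and LHP1-ZF, at shares a little above those over all FLAG regions. In MSI1-ZF, 19 members gained a peak in both replicates and 0 lost one, whereas over all FLAG regions the gained share was 1.11% and the lost share 0.28%. These 19 were 1.70% of the members, and 1.97% of the 965 members without H3K27me3 in fwa, against 1.32% of all FLAG regions without it. Of the 2163 weaker regions without it, 13 gained it (0.601%). In LHP1-ZF, 8 members gained H3K27me3 (background 0.56%) and 1 lost it (background 0.48%), and the gains made up 0.829% of the unmarked members against 0.231% of the unmarked weaker regions and 0.665% of all unmarked FLAG regions, which is near the background. Single replicates gave 58 and 39 gains in MSI1-ZF, which is 5.18% and 3.49% of members against 4.58% and 2.91% of all FLAG regions. In LHP1-ZF they gave 45 and 34, at 4.02% and 3.04% against 2.47% and 2.39%. EYFP-ZF gained H3K27me3 at 0 members (background 0.015%) with the limit given above.

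The other fusions assayed for this mark moved the opposite way or little. JMJ14-ZF gained H3K27me3 at 2 members (background 0.14%) and lost it at 5 (background 0.435%). ELF7-ZF gained it at 0 members and lost it at 10 (background 0.365%), which was 9.26% of the 108 marked members against 4.00% of 200 marked weaker regions. All 4 lines share the same fwa libraries, 1 per data set.

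**Figure D2:**
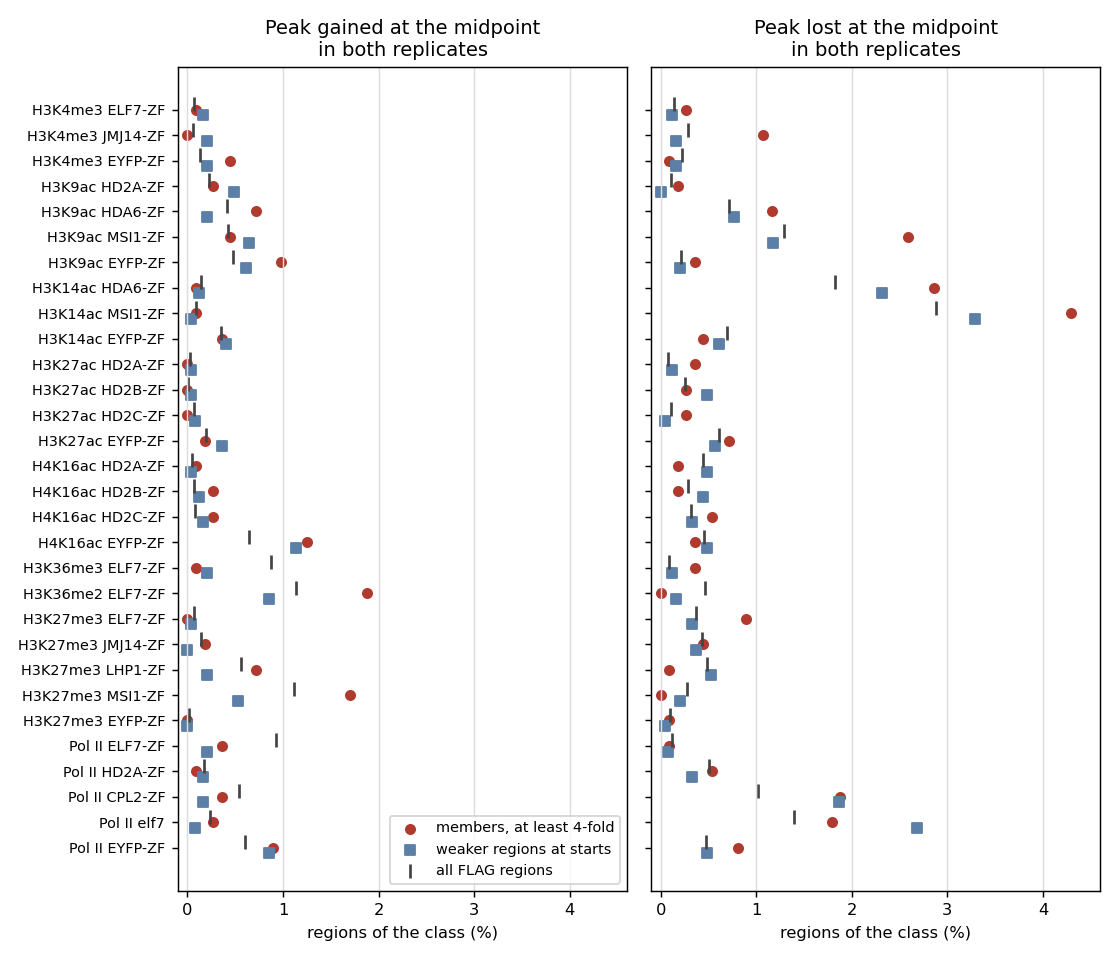
Percent of regions (horizontal axis) with a peak gained (left) or lost (right) at the midpoint in both replicates, for each mark or Pol II and line (vertical axis). Circles are members, squares weaker regions at starts and ticks all FLAG regions; members exceed both other classes for H3K27me3 gained in MSI1-ZF (1.70%) and for H3K4me3 lost in JMJ14-ZF (1.07%).

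Gains were more frequent at the strongest ZF sites. In MSI1-ZF, 10 of 262 unmarked members of at least 7-fold gained H3K27me3 (3.82%), against 5 of 358 between 5- and 7-fold (1.40%) and 4 of 345 between 4- and 5-fold (1.16%). For LHP1-ZF the shares were 1.91%, 0.559% and 0.290% in the same order. The gains also lay mostly where no H3K4me3 peak covered the midpoint, a state that need not hold for the whole window of the start. Of the members without H3K27me3, 18 of 574 with a midpoint bare of H3K4me3 in both fwa lists gained H3K27me3 in MSI1-ZF. Among those with the midpoint covered in both, 1 of 327 did, while for LHP1-ZF the counts were 7 and 1. Weaker regions were split the same way, at 12 of 1314 bare and 0 of 717 covered in MSI1-ZF, with 5 and 0 in LHP1-ZF. Upstream and downstream midpoints gained alike in MSI1-ZF, at 9 of 462 and 10 of 503 unmarked members. These strata hold few gains and are given with no test.

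At named genes the new peaks were several-fold enriched. AT2G02290, for a HAD-superfamily hydrolase (chr2:603885-605182, FLAG 10.3-fold), had no H3K27me3 peak in any of 4 fwa lists and folds of 5.51 and 5.60 in the LHP1-ZF lists, with 3.72 and 4.14 in those of MSI1-ZF. Both EYFP-ZF lists were empty there, but these and 2 of the fwa lists are those of data set 14 with few peaks. ELF7-ZF and JMJ14-ZF each had 1 peak, of 3.00- and 2.66-fold, that overlapped the region away from its midpoint. AT3G03405, for an F-box associated protein (FLAG 9.15-fold), had peaks of 2.13- and 3.15-fold at the edge of the region in the fwa lists of data sets 1 and 2. There the LHP1-ZF folds were 6.77 and 4.61 and the MSI1-ZF folds 4.63 and 3.84, all over the midpoint. XTH1, a cell-wall xyloglucan transferase gene (FLAG 9.86-fold), likewise had fwa peaks beside the midpoint (3.05 and 2.64) and MSI1-ZF peaks over it (3.80 and 3.40). At TEL2, which encodes a terminal ear1-like RNA-binding protein, fwa had peaks of 4.15- and 4.27-fold beside the midpoint, beside 5.15 and 2.93 over it in JMJ14-ZF, so the folds overlapped and the gain was one of where the peak lay.

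Among the losses in ELF7-ZF, some were also of that kind. GAD, a glutamate decarboxylase gene (FLAG 11.1-fold), had H3K27me3 folds of 6.91 and 7.30 in fwa with the midpoint covered and 6.25 and 6.78 in ELF7-ZF with the midpoint bare. AT2G32870 (TRAF-like) went from 6.07 and 4.604 to 4.54 and 3.08 in the same way. At AT5G43620, for a pre-mRNA cleavage complex II protein, the fwa peaks of 3.48- and 2.84-fold were absent from both ELF7-ZF and both JMJ14-ZF lists, LHP1-ZF had none and one of 2.97 beside the midpoint, and MSI1-ZF had 4.33 and 3.90.

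Around the midpoint the coverage by H3K27me3 peaks followed the same order. At the midpoint itself 12.2% and 11.3% of members were under a peak in fwa replicates 1 and 2, 17.2% and 13.1% in MSI1-ZF, 14.9% and 12.7% in LHP1-ZF and 10.9% and 8.22% in ELF7-ZF. At 2000 bp upstream replicate 1 of MSI1-ZF and fwa had the same share, 12.7%, and replicate 2 of MSI1-ZF had 9.74% against 10.5% in fwa.

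**Figure D3:**
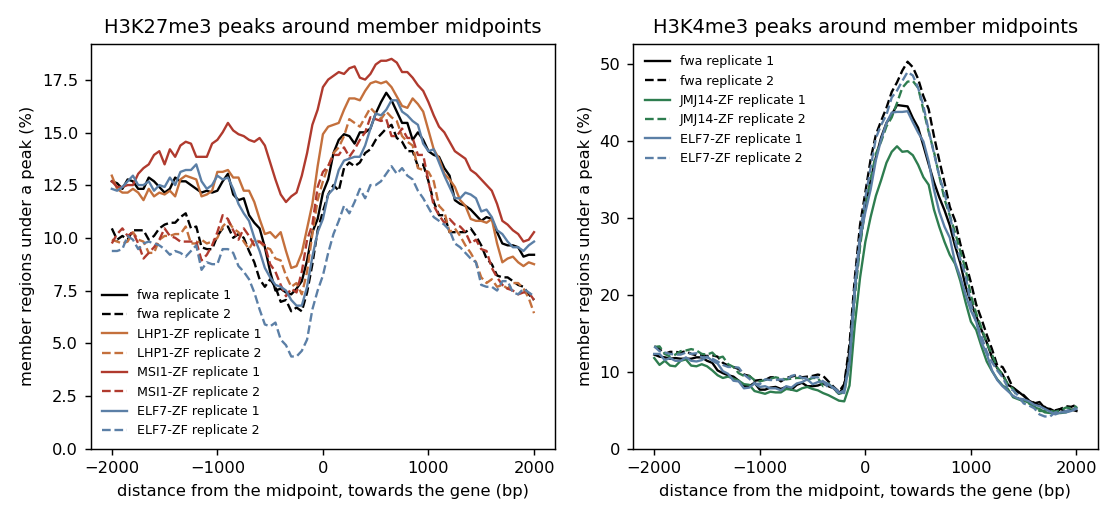
Percent of the 1119 members under a peak (vertical axis) at each distance from the midpoint (horizontal axis, bp, positive towards the gene) for H3K27me3 (left) and H3K4me3 (right), solid for replicate 1 and dashed for replicate 2. MSI1-ZF and LHP1-ZF run above fwa of the same replicate around the midpoint (17.2% and 14.9% against 12.2% in replicate 1), and JMJ14-ZF runs below fwa for H3K4me3 (26.9% against 31.5%).

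Where a peak was present in every library, its height could be compared. The highest peak fold over the window of each start was put on the log2 scale, quantile normalised between libraries and fitted with limma over all starts with peaks in all libraries of an experiment, so starts that gained or lost a peak are not in it. For H3K27me3 that left 2414 starts, 143 of them with members. Median log2 differences at member starts were 0.14 in LHP1-ZF (0.082 and 0.15 in the replicates alone) and 0.14 in MSI1-ZF (0.12 and 0.15), against -0.0065 and -0.026 at other starts and 0.023 at starts with a weaker region in both lines. Of the member starts, 65.7% in LHP1-ZF and 66.4% in MSI1-ZF were above 0, against 48.9% and 47.3% of other starts. These medians did not follow the FLAG fold, with 0.17, 0.091 and 0.13 for LHP1-ZF against 0.17, 0.092 and 0.18 for MSI1-ZF from the weakest to the strongest members. In simulated data limma recovered 30.5% of 200 seeded log2 changes of size 1 for H3K27me3 in data sets 1 and 2. No single member passed Benjamini-Hochberg adjustment in limma for H3K27me3 in either line (background of starts called higher 0% for LHP1-ZF, 0.0829% for MSI1-ZF). At an unadjusted p under 0.05, limma had 12 members higher and 4 lower for LHP1-ZF, with 21 higher and 0 lower for MSI1-ZF. Over all 2414 starts tested, 109 were higher and 105 lower for LHP1-ZF, with 119 higher and 99 lower for MSI1-ZF. By the window of the start rather than the midpoint, 11 member starts gained a peak in LHP1-ZF (background 0.308%) and 12 in MSI1-ZF (background 0.436%). The MSI1-ZF count by midpoint rested on the overlap rule: it was 12 when a peak anywhere in the region counted and 5 when its summit had to lie in the region.

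**Figure D4:**
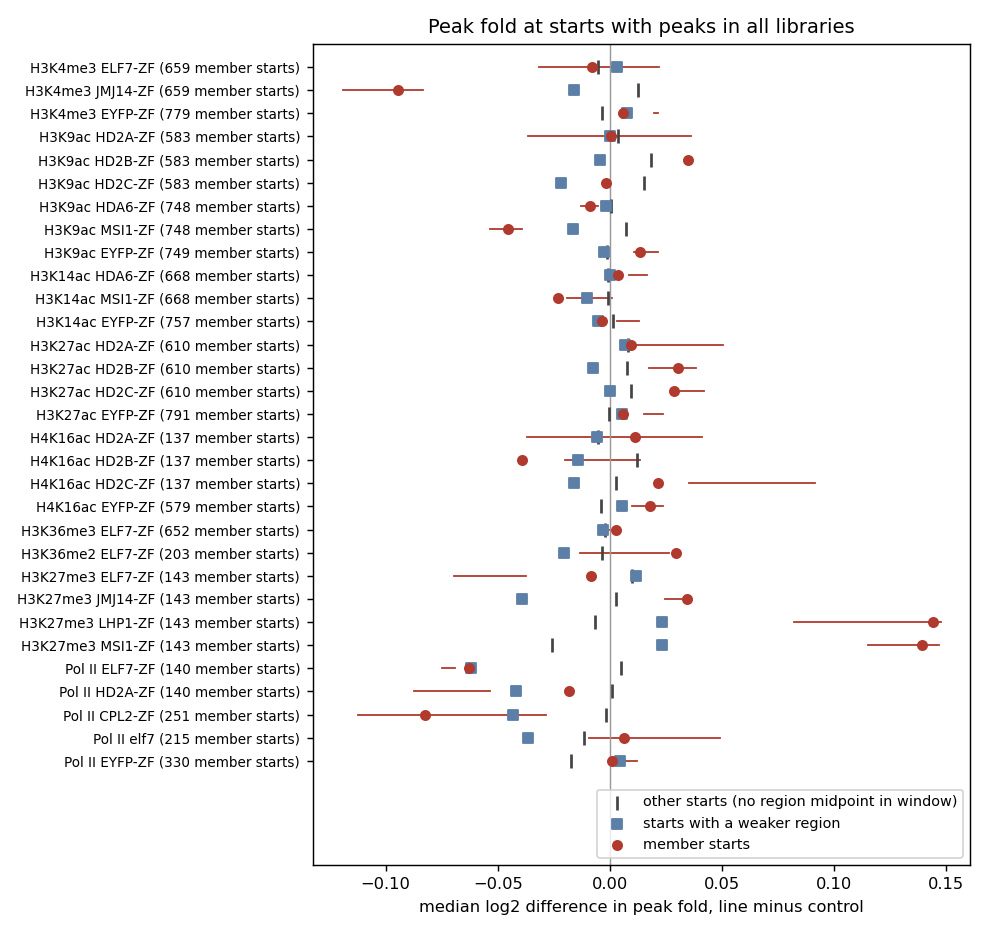
Median log2 difference in peak fold between line and control (horizontal axis) at starts with a peak in every library, by mark and line with the number of member starts (vertical axis). Circles are member starts, with a line joining the medians of the 2 replicates taken alone, squares starts with a weaker region and ticks other starts, with no region midpoint in the window; members lie at 0.14 for H3K27me3 in both LHP1-ZF and MSI1-ZF, and at -0.095 for H3K4me3 in JMJ14-ZF.

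H3K4me3 was lost at members in JMJ14-ZF. There 12 members lost the peak in both replicates (background 0.285%) and 0 gained one, which was 3.65% of the 329 marked members against 4 of 720 marked weaker regions (0.556%) and 1.66% of all marked FLAG regions. The replicates alone gave 56 and 35 losses, at 5.00% and 3.13% of members against 2.36% and 1.37% of all FLAG regions. ELF7-ZF, on the same fwa libraries, lost H3K4me3 at 3 members (background 0.135%), and EYFP-ZF lost it at 1 (background 0.225%) and gained it at 5 (background 0.135%). In JMJ14-ZF, 11 of the 12 losses lay at or downstream of the start, where 281 of the 329 marked members were. By the start window, 10 member starts lost H3K4me3 (background 0.324%).

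The height of the remaining H3K4me3 peaks moved the same way. Over 659 member starts the median log2 difference was -0.095 in JMJ14-ZF (-0.12 and -0.083 in the replicates), against 0.012 at 8680 other starts and -0.016 at 1445 with a weaker one. It was -0.067 for members of 4- to 5-fold, -0.082 for 5- to 7-fold and -0.12 for 7-fold and more. Only 37.5% of member starts were above 0, against 52.0% of other starts. ELF7-ZF and EYFP-ZF had medians of -0.0080 and 0.0057. In simulated data limma recovered 28% of 200 seeded log2 changes of size 1 for this mark. No start passed adjustment in limma for lower H3K4me3 in JMJ14-ZF (background 0%), and at an unadjusted p under 0.05 limma had 54 members lower and 12 higher. Over all 10784 starts tested, 319 were lower and 304 higher at that p.

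Among the losses, AT1G11660, for a heat shock protein 70 (FLAG 9.18-fold), had H3K4me3 folds of 6.49 and 7.39 in fwa of data sets 1 and 2, 4.37 and 8.41 in ELF7-ZF and 5.28 and 4.85 in EYFP-ZF, and no peak in either JMJ14-ZF list. AT4G21930, for a senescence regulator of the DUF584 family (FLAG 9.80-fold), had 2.71 and 4.23 in fwa, no peak and 1.71 in JMJ14-ZF, and no peak and 1.81 in ELF7-ZF. In EYFP-ZF it had 2.81 and 2.93 beside 3.72 and 3.47 in fwa of that data set. AT4G21930 was also among the members that gained H3K36me2 in ELF7-ZF, with 2.29 and 2.04 there and 1.87, beside the midpoint, and none in fwa.

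MCC1 was the member with changes in the most lines together with AT1G53450. It encodes a GNAT-type acetyltransferase known to affect meiotic crossovers, and its region (chr3:671808-672861, FLAG 9.62-fold) has its midpoint 170 bp inside the gene. H3K27me3 had no peak there in the 2 fwa lists of data sets 1 and 2, and folds of 7.45 and 3.98 in MSI1-ZF, 5.39 and 2.30 in LHP1-ZF and 5.48 and 3.48 in JMJ14-ZF. The 2 fwa and 2 EYFP-ZF lists of data set 14 had none either, but they hold few H3K27me3 peaks anywhere. ELF7-ZF had no peak in replicate 1 and 2.97 in replicate 2. H3K4me3 was present in 4 fwa lists (2.30 to 3.41), in ELF7-ZF (2.91 and 2.87) and in EYFP-ZF (3.00 and 2.17), and absent from both JMJ14-ZF lists. H3K9ac was present in 7 fwa lists (2.26 to 4.34) and in EYFP-ZF (2.48 and 2.78), and absent from every HDA6-ZF, MSI1-ZF and HD2 fusion list. For H3K14ac the fwa lists had 2.78 to 3.30 and EYFP-ZF 3.28 and 3.44, whereas HDA6-ZF had 1.71 and no peak and MSI1-ZF had none in either list. Pol II had a peak at MCC1 in 1 of 18 lists, and RNA levels were not analysed here.

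**Figure D5:**
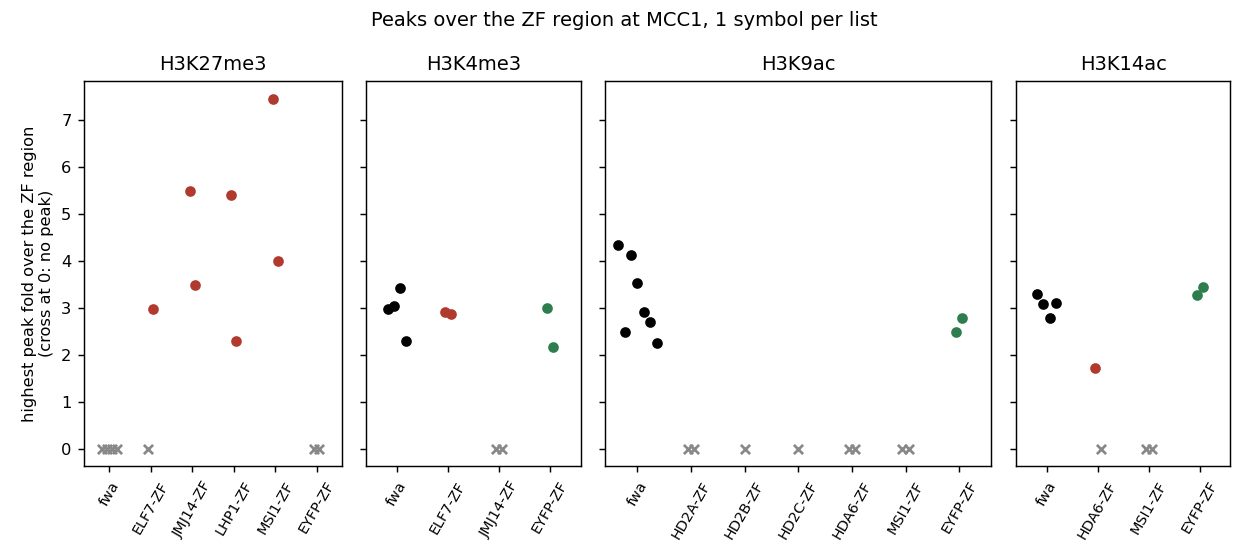
Highest peak fold over the ZF region at MCC1 (vertical axis) in each list, by line (horizontal axis) for H3K27me3, H3K4me3, H3K9ac and H3K14ac; a cross at 0 marks a list with no peak. MSI1-ZF has H3K27me3 folds of 7.45 and 3.98 and no H3K9ac or H3K14ac peak, and JMJ14-ZF has no H3K4me3 peak, while EYFP-ZF has H3K4me3, H3K9ac and H3K14ac peaks like fwa. The H3K27me3 lists of EYFP-ZF and 2 of those of fwa hold few peaks anywhere.

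The study's methods give the same antibody catalogue number for H3K14ac and H3K27ac, so these names are used as the labels give them and which modification each antibody recognised is not settled here. In both replicates, acetylation was lost at the largest numbers of members in MSI1-ZF and HDA6-ZF. Among the shares of these lines, that of H3K9ac in MSI1-ZF stood furthest above that of all marked regions. MSI1-ZF lost H3K9ac at 29 members (background 1.29%) and gained it at 5 (background 0.425%), so 7.02% of the 413 marked members lost it against 3.14% of 925 marked weaker regions and 5.53% of all marked FLAG regions. HDA6-ZF lost H3K9ac at 13 members (background 0.716%) and gained it at 8 (background 0.41%), and of the marked members 3.15% lost it against 3.08% of all marked FLAG regions, so this loss was at the background. Lost H3K14ac numbered 48 members in MSI1-ZF (background 2.88%) and 32 in HDA6-ZF (background 1.82%). Set against the regions that had the mark, these were 12.7% and 8.47% of members and 12.8% and 8.11% of all FLAG regions, which is near the background. The HDA6-ZF count went from 32 to 21 or 18 when a peak anywhere in the region, or its summit, had to count. EYFP-ZF lost H3K9ac at 4 members (background 0.215%) and gained it at 11 (background 0.475%), and lost H3K14ac at 5 (background 0.69%) and gained it at 4 (background 0.355%).

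Peak height moved in the same direction for H3K9ac in MSI1-ZF, by little. The median log2 difference at 748 member starts was -0.045 (-0.054 and -0.039 in the replicates) against 0.0073 at other starts. In limma, 86 members were lower and 39 higher at an unadjusted p under 0.05. Over all 12981 starts tested, 877 were lower and 820 higher at that p. HDA6-ZF had a median of -0.0090, and for H3K14ac the medians were -0.023 in MSI1-ZF and 0.0038 in HDA6-ZF. In limma with Benjamini-Hochberg adjustment over 12981 starts, H3K9ac at 3 member starts was lower in MSI1-ZF (background 0.131%). AT1G48960 (FLAG 6.90-fold) had folds of 2.41 and 2.19 in MSI1-ZF and 5.00 and 5.72 in fwa, a log2 difference of -1.36 (SE 0.12, adjusted p = 0.00723 by limma). AT1G49350 had 2.28 and 1.97 against 4.32 and 4.16, a log2 difference of -1.14 (SE 0.12, adjusted p = 0.0111 by limma), and AT3G59000 had 1.85 and 2.11 against 3.65 and 3.45, at -0.98 (SE 0.13, adjusted p = 0.0214 by limma). At all 3 both MSI1-ZF libraries were below both fwa libraries. Over the alternatives the adjusted p ran from 0.00466 to 0.0485 for AT1G48960, 0.0103 to 0.0730 for AT1G49350, lost without fwa replicate 2, and 0.0177 to 0.130 for AT3G59000, which was not called in 4 of 10.

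Loss of H3K14ac at the strongest members is shown by AT5G62970, where fwa had 2.13 and 1.79, EYFP-ZF 2.24 and 1.99, and neither HDA6-ZF nor MSI1-ZF had a peak in any of 4 lists. At AT1G07050, a CCT-motif gene (FLAG 10.2-fold), peaks of 2.84 and 2.28 in HDA6-ZF and 2.57 and 2.42 in MSI1-ZF remained in the region and only left the midpoint, against 2.87 and 2.77 in fwa. BGAL3, a beta-galactosidase gene, was of the same kind, with 2.07 and 1.91 in HDA6-ZF against 2.97 and 2.51 in fwa. For H3K9ac, MAKR2 kept peaks of 5.39 and 5.97 in MSI1-ZF beside 4.49 and 5.85 in fwa, so its loss at the midpoint came without a lower fold.

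The HD2 fusions changed few members. HD2A-ZF lost H3K27ac at 4 members (background 0.0801%), HD2C-ZF lost H4K16ac at 6 (background 0.315%), and every other gain or loss of H3K27ac and H4K16ac in the 3 lines, and of H3K9ac in HD2A-ZF, was of 3 members or fewer. H3K9ac in HD2B-ZF and HD2C-ZF has 1 library each, which lost it at 28 and 26 members. These were 9.40% and 8.72% of marked members, against 10.6% and 7.81% of all marked FLAG regions. EYFP-ZF was measured in a data set of its own, where 251 members had H4K16ac in fwa against 85 in the HD2 data sets. It lost H3K27ac at 8 members (background 0.61%) and H4K16ac at 4 (background 0.45%), and gained H4K16ac at 14 (background 0.64%). As shares of marked members, H3K27ac lost was 1.28% in HD2A-ZF and 1.86% in EYFP-ZF, and H4K16ac lost was 7.06% in HD2C-ZF and 1.59% in EYFP-ZF, over 85 and 251 marked members. Over all marked FLAG regions they were 0.498% and 2.39%, and 5.04% and 2.66%. The difference between the lines was not tested. For H4K16ac the HD2C-ZF list held 11472 peaks in replicate 2 against 17474 in fwa. In replicate 1 it held 14703 against 13357 and 12389 in the fwa lists. The member at AT1G53450, an annotated homologue of an Epstein-Barr nuclear antigen (FLAG 10.1-fold, midpoint 131 bp downstream), lost the H3K27ac peak over its midpoint in all 3. Its folds were 7.61 and 8.32 in the 2 fwa lists of data set 4 and 5.13 in HD2A-ZF, 6.11 in HD2B-ZF and 4.17 in HD2C-ZF there, and 3.55 and 4.37 against 3.65, 3.24 and 3.84 in data set 3. So the fold was lower in 1 of the data sets and overlapping in the other. EYFP-ZF had 4.35 and 2.79 against 3.68 and 4.26. H3K36me3 at AT1G53450 was 2.57 and 2.54 in ELF7-ZF against 3.65 and 4.51 in fwa.

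ELF7-ZF gained H3K36me2 at 21 members (background 1.13%) and lost it at 0, while H3K36me3 was lost at 4 (background 0.0901%). The H3K36me2 gains were 2.14% of the 980 unmarked members, against 1.02% of 2067 unmarked weaker regions and 1.61% of all unmarked FLAG regions, and 17 of them lay at or downstream of the start. AT1G53550, an F-box gene with the FWA-like sequence described above within 2 mismatches, went from no peak in fwa to 2.39 and 1.59. Only 1 control library per data set was at hand for these marks, and the single replicates gave 80 and 62 gains, at 7.15% and 5.54% of members against 7.16% and 4.39% of all FLAG regions. In peak height the median log2 difference was 0.030 for H3K36me2 at 203 member starts and 0.0029 for H3K36me3 at 652.

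Peaks of Pol II phosphorylated at Ser5 were lost at members in CPL2-ZF and in the elf7 mutant, which has no ZF. Neither loss was much more frequent at members than at weaker regions that carried Pol II. The paper describes CPL2 as a phosphatase specific for Ser5, so in CPL2-ZF a lost phosphate and lost Pol II cannot be told apart. CPL2-ZF lost the peak at 21 members (background 1.02%) and gained it at 4 (background 0.535%), and elf7 lost it at 20 (background 1.39%). Of the members with Pol II in the controls these were 12.3% and 12.1%, and of the weaker regions 11.9% and 16.2%. Members and weaker regions had nearly the same share in CPL2-ZF, and 18 of the 21 lay at or downstream of the start. By FLAG fold, 4 of 61 marked members between 4- and 5-fold lost Pol II in CPL2-ZF (6.56%), 6 of 55 between 5- and 7-fold (10.9%) and 11 of 55 of at least 7-fold (20%), and 12.3% of marked weaker regions of 2- to 4-fold did, so the shares did not rise steadily with the fold below the threshold. HD2A-ZF lost Pol II at 6 (background 0.51%), ELF7-ZF gained it at 4 (background 0.926%), and EYFP-ZF lost it at 9 (background 0.475%) and gained it at 10 (background 0.605%). Among them, AT5G19510, an elongation factor EF1B gene with a telobox (FLAG 10.4-fold), had folds of 8.90 and 3.38 in fwa and no peak in either CPL2-ZF list, and RVE8 had 4.06 and 5.82 in fwa, 3.33 and 4.32 in ELF7-ZF and no peak in HD2A-ZF. With a peak anywhere in the region counted, the CPL2-ZF losses were 35. The lists also differed in size. In replicate 2 HD2A-ZF had 12753 Pol II peaks against 19505 in fwa, and elf7 had 10611 against 14911 in Col-0. In replicate 1 HD2A-ZF had 15108 against 11758 and elf7 17578 against 17391. What the losses owe to list size was not tested.

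The median log2 difference of Pol II peak fold was -0.082 at 251 member starts in CPL2-ZF (-0.029 and -0.11 in the replicates) and -0.063 at 140 in ELF7-ZF (-0.075 and -0.069), against -0.0016 and 0.0050 at other starts. With 1 library left out the ELF7-ZF median ran from -0.10 to -0.019 and was -0.14 with median centring, where all starts were at -0.071. That of CPL2-ZF was -0.045 without fwa replicate 2, in a fit that could not pair libraries by data set. Starts with a weaker region had -0.043 and -0.062, so members and weaker regions were close together in both. In ELF7-ZF the median did not follow the FLAG fold, with -0.091, -0.15 and 0.14 from the weakest to the strongest members. HD2A-ZF had -0.018 (-0.087 and -0.053 in the replicates), and -0.042 at starts with a weaker region. Its median ran from -0.063 to -0.0031 with 1 library left out, so these values do not set HD2A-ZF apart from ELF7-ZF. The elf7 mutant had 0.0062 and EYFP-ZF 0.00099.

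Only 2 member starts were called in CPL2-ZF by limma, and both were higher (background 1.05%). PYD1, for the first enzyme of pyrimidine catabolism, had folds of 6.99 and 6.65 in CPL2-ZF against 3.03 and 2.30 in fwa, a log2 difference of 1.44 (SE 0.25, adjusted p = 0.0236 by limma). AKINBETA1, for a subunit of the SnRK1 energy-sensing kinase, had 13.96 and 9.01 against 7.64 and 3.40, at 1.21 (SE 0.25, adjusted p = 0.0461 by limma). In elf7 2 were lower (background 0.197%). BG_PPAP, a plasmodesmal glucanase gene, had 3.68 and 1.86 against 10.9 and 6.05 in Col-0, at -1.50 (SE 0.29, adjusted p = 0.0207 by limma), and SAUR26, an auxin-induced gene, had 2.57 and 1.80 against 5.58 and 7.21, at -1.37 (SE 0.29, adjusted p = 0.0361 by limma). Without the pairing of libraries by data set, 0 of these 4 Pol II calls were left. Fits with 1 library left out could not keep that pairing, so they add no separate check. Each paired fit had 1 residual degree of freedom, beside 9.97 in CPL2-ZF and 17.3 in elf7 that limma borrowed from all starts. The SE and p-values of these calls therefore rest mostly on the spread at other starts. In the control fusion, H3K9ac at ARR4, a cytokinin response regulator gene, was lower (background 0.0157%), with 2.42 and 2.47 in EYFP-ZF against 9.73 and 12.6 in fwa, a log2 difference of -2.19 (SE 0.13, adjusted p = 0.000582 by limma, 1.88e-05 to 0.0795 over the alternatives). It was not called without either fwa library.

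IAA7, a repressor of auxin response (FLAG 8.86-fold), changed in 4 lines. Its Pol II folds were 4.197 and 3.24 in Col-0 and none in elf7, and 2.31 and 2.76 in fwa and none in CPL2-ZF, while EYFP-ZF had 6.28 and 5.49 against 5.44 and 3.79. H3K9ac in HD2A-ZF was 3.38 in data set 3, against 6.11 and 4.70 in its 2 fwa lists, and 2.27 in data set 6, against 3.93. The change at IAA7 in MSI1-ZF was a loss of H3K14ac over the midpoint, with 2.81 beside it and no peak against 2.00 and 1.85 over it in fwa.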

How the data were processed

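Leaf and flower-bud ChIP–seq libraries were grouped by line, mark, data set and replicate of their labels. Per the labels and methods, the authors aligned reads to TAIR10 (Bowtie2 2.1.0), removed duplicates (SAMtools 1.9) and called peaks per library (MACS2 2.1.1). Deposited fold enrichment values are ratios of the summit's signal over MACS2's local background. The deposited −log10 q value is at least 1.30 in mark lists. The control of the calls is given for FLAG-ZF (fwa) only, and read depths are not given, so counting error is unknown. Of the deposited bisulfite files, 1 served to check the build: the authors' raw counts, fraction and ratio columns were not used otherwise, and 103 of 103 cytosines matched TAIR10.1.

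Sequences are from RefSeq TAIR10.1. Gene names and products are from the same annotation. Members, lists and tests were chosen with earlier results of these data known. Peaks over midpoints and start windows were counted with python (3.11.15), and log2 folds were fitted with limma (3.58.1; R 4.3.3), quantile normalised, with data set as a term where an experiment spans data sets, adjusted p under 0.05. This was tested on simulated data. Same-numbered libraries share a data set in the labels, which pairs them (correlation of deviations 0.114 to 0.176 for H3K27me3 and 0.330 to 0.365 for H3K4me3 in data sets 1 and 2); the fit therefore holds this block. Named genes were the 5 members of highest fold, up to 3 gained, lost, higher or lower members per contrast by FLAG fold or change, the 5 changed in most lines, and AT3G13470; of these the text describes a part. Alternatives changed the overlap, q, window, normalisation, block or libraries.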

Additional observations from a re-analysis of the deposited data

How the results depend on the processing

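Of the counts by midpoint, H3K27me3 gained in MSI1-ZF was 12 when any overlap with the region counted and 5 when the peak's summit had to lie in it, against 19. H3K14ac lost in HDA6-ZF was 21 and 18 under these rules, and Pol II lost in CPL2-ZF 35 with any overlap. With 1 replicate in place of both, the counts were 39 to 58 for H3K27me3 gained in MSI1-ZF, 34 to 45 in LHP1-ZF, 35 to 56 for H3K4me3 lost in JMJ14-ZF, 51 to 53 for H3K14ac lost in HDA6-ZF, 62 to 80 for H3K36me2 gained in ELF7-ZF and 67 to 68 for Pol II lost in CPL2-ZF. In the limma fits, 1 member start was called higher for H3K27me3 in LHP1-ZF and 1 in MSI1-ZF without fwa replicate 1. H3K9ac lower in MSI1-ZF was 7 with cyclic loess, 8 with missing folds set to the lowest of the list and 1 to 5 with a library left out, and H3K9ac lower in EYFP-ZF was 0 without either fwa library. The Pol II calls in CPL2-ZF were 0 with median centring and 1 with missing folds set to the lowest. Those in elf7 were 0 with median centring, cyclic loess or missing folds set to the lowest. With a library left out, the fits for CPL2-ZF and elf7 could not hold the data-set term, so they add no separate check. Without the data-set term that pairs libraries (no replicate block), both Pol II counts were 0, and with a replicate block in data sets 7 and 15 no call named in the text was lost. Median log2 differences at member starts with missing folds set to the lowest were 0.24 for H3K27me3 in LHP1-ZF and 0.23 in MSI1-ZF, which was 0.12 with median centring. With a library left out they were as low as 0.093 in LHP1-ZF, 0.17 to 0.19 in MSI1-ZF where they moved, and between -0.13 and -0.077 for H3K4me3 in JMJ14-ZF. No normalization between libraries, chosen after the data were seen, gave 0.055, 0.092 and -0.032, with all starts at -0.087, -0.046 and 0.062, and 0 Pol II calls in CPL2-ZF and elf7. It turned the medians of H3K9ac in MSI1-ZF (0.11, all starts 0.15) and Pol II in ELF7-ZF (0.057, all starts 0.13) above 0, still below all starts. Read depth is unknown, so the precision of single folds could not be given.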
